A study of Homo sapiens with 24 samples.

Results

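The effect of RPRD1A siRNA on messenger RNA levels was measured in HEK293T, a human embryonic kidney cell line, by setting 8 libraries that received RPRD1A siRNA against 8 that did not, out of 24 samples in the series. The libraries with RPRD1A siRNA come from 4 groups of 2: RPRD1A_KD, RPRD1A_RPRD1A_KD, RPRD1A_RPRD2_KD and RPRD1A_RPRD1B_RPRD2_KD. The libraries without it come from control, RPRD1B_KD, RPRD2_KD and RPRD1B_RPRD2_KD. All 16 were transfected with siRNA for 48 h, the controls too, and no genotype or further agent is given. Each RPRD1A siRNA group therefore has a partner group that carries the same other siRNAs: none, RPRD1B, RPRD2 or both. The label RPRD1A_RPRD1A_KD names RPRD1A in both positions, and the group was placed among those with RPRD1B siRNA because its deposited file names RPRD1A and RPRD1B. RPRD1B read 14.3 and 8.11 CPM (counts scaled to a common library size) in its libraries, against 3.99 to 14.8 CPM in the other libraries with RPRD1B siRNA and 19.4 to 37.7 CPM in those without. The labels do not say how many siRNAs were used per gene or whether replicates are separate cultures. One RPRD1A siRNA label is shared by all 8 libraries, so loss of RPRD1A and other actions of its siRNA cannot be told apart.

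RPRD1A, also called P15RS, is a small nuclear protein with a CTD-interaction domain, a fold that holds the repeated C-terminal tail (CTD) of the largest RNA polymerase II subunit. It forms homodimers and heterodimers with RPRD1B and RPRD2 on the phosphorylated tail, where these proteins associate with the CTD phosphatase RPAP2. RPRD1A has also been described as a repressor of Wnt signalling that keeps beta-catenin from TCF transcription factors. The series asks how the RPRD proteins act on transcription.

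The 16 libraries held 1817246 to 3135625 counts in genes, with 15975 to 17093 genes detected. RPRD1A_RPRD2_KD replicate 2 stood apart: it lay at -53.4 on the leading principal component (29.6% of variance), against -2.82 to 11.4 for the other 15, and its deviations rose with the GC content of transcripts (Spearman's rho 0.416 across genes, against -0.207 to 0.0877). The RPRD1A siRNA effect on the called genes is therefore given with all 16 libraries and without that one, and other values rest on all 16 libraries unless stated. All 9 kidney line markers were detected, summing to 223 to 295 CPM with RPRD1A siRNA and 241 to 306 CPM without. VIM had the highest median over the 16 libraries, 135 CPM, and PAX2 (2.04 CPM), NEFL (2.80 CPM) and KRT8 (3.93 CPM) were low. Of 13 markers of other cell types, 6 (PTPRC, HBB, CD3E, DCN, KRT5 and KRT14) were at 0 in all 16 libraries, and the list summed to 8.75 to 17.2 CPM with and 9.76 to 23.1 CPM without. COL1A1 (median 8.73 CPM) and EPCAM (2.76 CPM) had counts in all 16 libraries, and COL1A1 stood above PAX2, NEFL and KRT8.

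Promoters are shown for the genes that carry the main result: CBX5, the gene with the smallest p among those that rose, NDUFAF3, the gene with the smallest p among those that fell after RPRD1A itself, and FAM174A, the next of these. Each covers 250 bases before to 50 bases after the annotated start in RefSeq (GRCh38.p14), 5′ to 3′ on the gene's strand, at chr12:54280073-54280372 (minus strand), chr3:49020202-49020501 (plus strand) and chr5:100535124-100535423 (plus strand). Capitals mark matches, on either strand, to the GC box GGGCGG, the CCAAT box CCAAT, the TATA box TATAAA and the TCF sites CTTTGAT and CTTTGAA.
CBX5: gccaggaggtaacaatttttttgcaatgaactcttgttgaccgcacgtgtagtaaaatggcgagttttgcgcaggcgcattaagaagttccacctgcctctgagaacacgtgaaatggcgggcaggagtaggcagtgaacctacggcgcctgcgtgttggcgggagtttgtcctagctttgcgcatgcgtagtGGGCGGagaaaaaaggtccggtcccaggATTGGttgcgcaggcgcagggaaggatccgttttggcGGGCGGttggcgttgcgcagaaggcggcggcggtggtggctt
NDUFAF3: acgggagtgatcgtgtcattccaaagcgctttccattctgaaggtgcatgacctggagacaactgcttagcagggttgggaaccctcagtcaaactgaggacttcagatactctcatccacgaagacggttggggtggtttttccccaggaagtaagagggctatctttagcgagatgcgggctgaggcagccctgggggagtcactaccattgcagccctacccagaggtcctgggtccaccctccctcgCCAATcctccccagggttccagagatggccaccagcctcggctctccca
FAM174A: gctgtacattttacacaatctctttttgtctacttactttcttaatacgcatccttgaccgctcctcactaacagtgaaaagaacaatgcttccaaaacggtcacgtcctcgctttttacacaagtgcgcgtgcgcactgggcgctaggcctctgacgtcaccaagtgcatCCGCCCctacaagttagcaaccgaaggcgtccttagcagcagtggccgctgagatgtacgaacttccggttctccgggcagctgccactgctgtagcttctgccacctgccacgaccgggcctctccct
The CBX5 stretch holds 2 GC boxes, 1 CCAAT box and 25 CpG dinucleotides, the NDUFAF3 stretch 1 CCAAT box and 9 CpG dinucleotides, and the FAM174A stretch 1 GC box and 19 CpG dinucleotides. None of the 3 holds a TATA box or a TCF site in this window.

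RPRD1A messenger RNA was low in every library labelled with its siRNA. It ranged from 14.7 to 27.6 CPM (median 21.6) in the 8 libraries with the siRNA and from 69.7 to 166 CPM (median 93.0) in the 8 without. The sides did not overlap, and RPRD1A_RPRD2_KD replicate 2 read 19.7 CPM, inside the range of the other treated libraries. In the edgeR quasi-likelihood test of the RPRD1A siRNA effect, with terms for replicate number and for RPRD1B and RPRD2 siRNA, RPRD1A fell by 2.24 on the log2 scale (SE 0.16, adjusted p = 6.63e-09), and it fell by 2.23 (SE 0.13, adjusted p = 1.38e-18) without that library. The gene lies at chr18:35984387-36067576 on the minus strand (GENCODE 29, GRCh38), and the reads come from the 3′ ends of its transcripts.

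The RPRD1A levels are given by background. Treated RPRD1A levels were 16.9 and 23.4 CPM in RPRD1A_KD, 27.4 and 14.7 CPM in RPRD1A_RPRD1A_KD, 19.1 and 19.7 CPM in RPRD1A_RPRD2_KD and 25.3 and 27.6 CPM in the group of all 3 siRNAs. Partner levels were 156 and 166 CPM in control, 86.4 and 102 CPM in RPRD1B_KD, 75.0 and 99.7 CPM in RPRD2_KD and 69.7 and 85.3 CPM in RPRD1B_RPRD2_KD. The control libraries were the highest of the 8 untreated ones. The mean difference over the matched pairs was -2.98 with no other siRNA, -2.20 with RPRD1B siRNA, -2.13 with RPRD2 siRNA and -1.53 with both, on log2(CPM + 0.5). Neither the interaction with RPRD1B siRNA (0.70, SE 0.23, adjusted p = 0.92) nor that with RPRD2 siRNA (0.73, SE 0.23, adjusted p = 0.84) passed the test. The RPRD1B siRNA effect (-0.24, adjusted p = 0.61) and the RPRD2 siRNA effect (-0.34, adjusted p = 0.90) on RPRD1A did not pass either. These 2 effects were averaged over libraries with and without RPRD1A siRNA, and the untreated libraries alone were not tested for them.

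The other RPRD genes did not pass the test for an RPRD1A siRNA effect. RPRD1B stood at -0.08 on the log2 scale (SE 0.16, adjusted p = 0.96), and its pairs divided by background: it was higher in the 4 pairs that also received RPRD1B siRNA (0.42, 0.36, 0.35 and 0.63) and lower in the 4 that did not (-0.05, -0.26, -0.67 and -0.36). The RPRD1B siRNA interaction for RPRD1B, 0.73 (SE 0.31, adjusted p = 0.92), did not pass the test. RPRD2 stood at 0.22 (SE 0.10, adjusted p = 0.67), with 6 of 8 pairs higher. Its pair differences were 0.43, 0.65, 0.58 and 0.40 where RPRD2 siRNA was also given and -0.20 to 0.08 where it was not, and its interaction with RPRD2 siRNA, 0.55 (SE 0.16, adjusted p = 0.84), did not pass the test. With its own siRNA RPRD1B fell by 1.53 (SE 0.16, adjusted p = 9.00e-06), and with its own RPRD2 fell by 1.13 (SE 0.10, adjusted p = 3.79e-07). RPRD2 read 34.7 and 31.1 CPM in RPRD2_KD, 47.0 and 49.1 CPM in RPRD1A_RPRD2_KD, 46.7 and 39.9 CPM in RPRD1B_RPRD2_KD and 70.2 and 52.96 CPM in the group of all 3 siRNAs, so it was lowest where its siRNA was used alone.

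**Figure D1:**
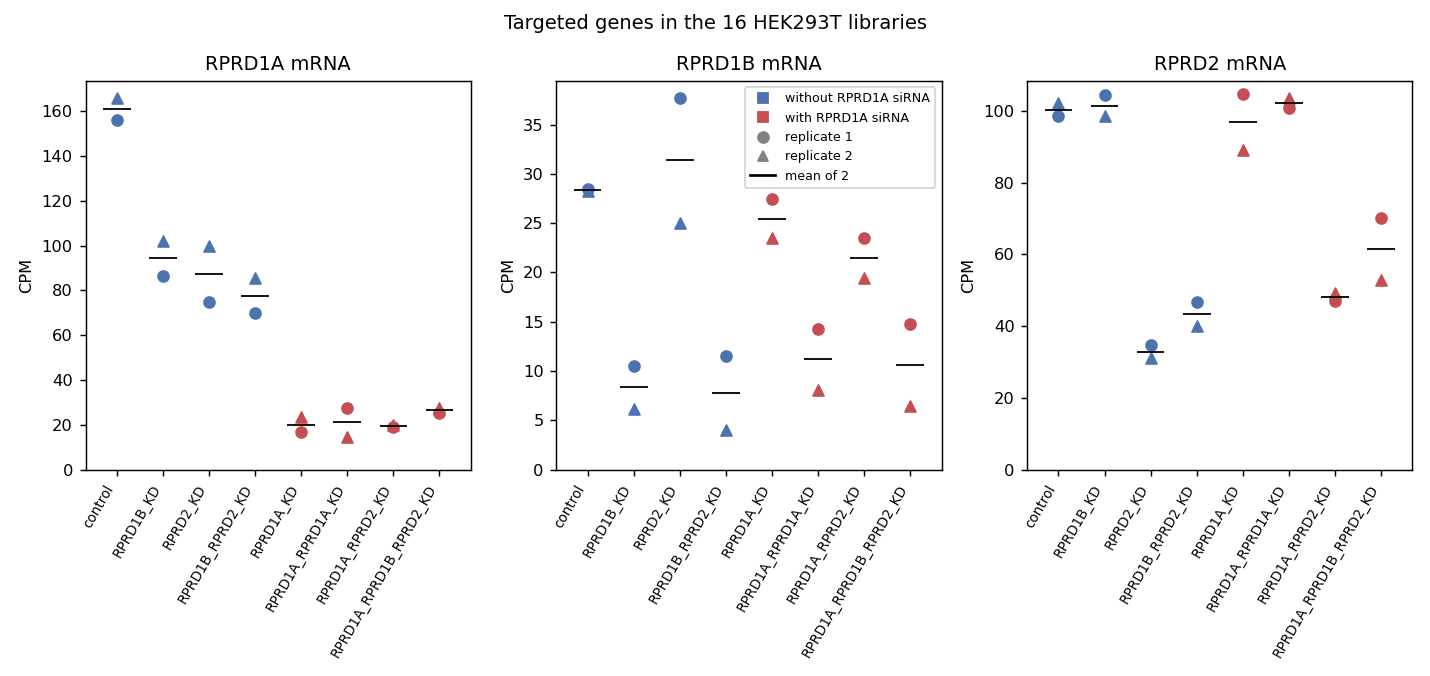
Levels of RPRD1A, RPRD1B and RPRD2 in CPM (counts scaled to a common library size, linear axes from 0) in each of the 16 libraries, grouped by the siRNAs given, with 1 point per library, shaped by replicate number, and a bar at the group mean. RPRD1A sits between 14.7 and 27.6 CPM in all 8 libraries with its siRNA (red) and between 69.7 and 166 CPM in the 8 without (blue).

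Few genes were called for an RPRD1A siRNA effect, and most of those called were lower. Of 11834 genes tested, 19 (0.161%) were called at an adjusted p under 0.05 with all 16 libraries, 2 higher (0.0169%) and 17 lower (0.144%), RPRD1A included. Without RPRD1A_RPRD2_KD replicate 2, 67 (0.566%) were called, 10 higher (0.0845%) and 57 lower (0.482%), and all 19 were among them. The fold changes were small: the median size over the 19 genes was 0.63 on the log2 scale, only RPRD1A and RNF11 exceeded 1, and the median over all genes tested was 0.09. At an unadjusted p under 0.05, 838 genes passed with all 16 libraries and 1046 without the one, where chance gives 592. Of the 19 genes, 18 had the same direction in all 8 matched pairs, as did 206 of the 11834 genes tested, and 8 did not overlap between the sides, as did 14 of those tested.

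CBX5 and BACE1 were the genes called higher with all 16 libraries. CBX5 encodes heterochromatin protein 1 alpha, which binds methylated histone H3 in silent chromatin. It ranged from 139.5 to 238 CPM (median 179) with RPRD1A siRNA and from 113 to 148 CPM (median 129.8) without, and 1 treated library fell inside the untreated range. CBX5 rose by 0.50 (SE 0.07, adjusted p = 7.34e-04), with all 8 pairs higher, and by the same 0.50 (adjusted p = 1.01e-06) without RPRD1A_RPRD2_KD replicate 2. CBX5 read 148 and 145 CPM in control against 238 and 238 CPM in RPRD1A_KD, 122 and 122 CPM in RPRD2_KD against 182 and 182 CPM in RPRD1A_RPRD2_KD, 135 and 139 CPM in RPRD1B_KD against 177 and 165 CPM in RPRD1A_RPRD1A_KD, and 113 and 125 CPM in RPRD1B_RPRD2_KD against 173 and 139.5 CPM in the group of all 3 siRNAs. The pair differences were closest with RPRD2 siRNA (0.58 and 0.58) and farthest apart with both other siRNAs (0.62 and 0.16). BACE1 encodes beta-secretase, the protease that makes the initial cut in amyloid precursor protein. It ranged from 24.1 to 41.0 CPM with RPRD1A siRNA and from 13.4 to 23.4 CPM without, with no overlap, and rose by 0.75 (SE 0.12, adjusted p = 0.00406), and by 0.74 (adjusted p = 1.82e-04) without that library. RNF214 and CEP164 overlap BACE1 on the opposite strand, and the sources used here do not state whether counting used strand.

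NDUFAF3, an assembly factor of mitochondrial respiratory complex I, had the smallest p among the genes that fell other than RPRD1A. It ranged from 55.4 to 144 CPM (median 83.8) with RPRD1A siRNA and from 107 to 196 CPM (median 147) without. The ranges overlapped, but all 8 pairs were lower, and it fell by 0.70 (SE 0.09, adjusted p = 4.37e-04), and fell by 0.76 (SE 0.07, adjusted p = 3.28e-10) without the library that stood apart, whose value of 144 CPM was the highest on the treated side. NDUFAF3 (chr3:49020459-49023495, plus strand) overlaps DALRD3 on the opposite strand, which read about 10.4 CPM with and 10.2 CPM without and stood at 0.01 on the log2 scale (SE 0.19, adjusted p = 0.997).

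NRAS, SMAD5, ZCCHC12, RNF11 and HIPK3 were among the genes that fell. NRAS, a small GTPase that relays receptor signals, ranged from 24.1 to 165 CPM (median 109.9) with RPRD1A siRNA and from 157 to 216 CPM (median 184) without. Its lowest value, 24.1 CPM, was that of RPRD1A_RPRD2_KD replicate 2, and the next was 83.8 CPM. NRAS fell by 0.89 (SE 0.17, adjusted p = 0.0181) with all 16 libraries and fell by 0.70 (SE 0.07, adjusted p = 3.98e-09) without that one. SMAD5, which carries BMP receptor signals to the nucleus, ranged from 53.2 to 84.0 CPM with and from 90.4 to 110.3 CPM without, with no overlap, and fell by 0.55 (SE 0.09, adjusted p = 0.00280). ZCCHC12, a coactivator of BMP target genes, fell by 0.69 (SE 0.13, adjusted p = 0.0201). RNF11, a RING-finger protein that works with HECT-type ubiquitin ligases, ranged from 7.24 to 20.2 CPM with and from 15.4 to 33.3 CPM without, and fell by 1.02 (SE 0.19, adjusted p = 0.0191). HIPK3, a nuclear protein kinase, fell by 0.86 (SE 0.13, adjusted p = 0.00222). Without the library that stood apart, SMAD5 stood at -0.50 (adjusted p = 3.49e-05), ZCCHC12 stood at -0.57 (adjusted p = 1.48e-04), RNF11 stood at -0.92 (adjusted p = 6.73e-04) and HIPK3 stood at -0.82 (adjusted p = 3.66e-05). No list of signalling genes was tested, and these genes stand together only by their textbook roles.

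TPX2, PHACTR2, FERMT2 and CAMSAP2, which act on the cytoskeleton or adhesion, fell as well, and no list of such genes was tested. TPX2, which activates Aurora A kinase on the spindle, ranged from 155 to 223 CPM with RPRD1A siRNA and from 227 to 263 CPM without, a narrow gap with no overlap, and fell by 0.36 (SE 0.07, adjusted p = 0.0333). PHACTR2, a binder of actin and protein phosphatase 1, ranged from 22.7 to 33.3 CPM with and from 35.3 to 47.3 CPM without and fell by 0.67 (SE 0.10, adjusted p = 7.34e-04). FERMT2, or kindlin-2, an integrin activator, fell by 0.51 (SE 0.10, adjusted p = 0.0333), and CAMSAP2, which binds microtubule minus ends, fell by 0.63 (SE 0.12, adjusted p = 0.0127) with 7 of 8 pairs lower, the 1 exception among the 19 genes. Without the library that stood apart, TPX2 stood at -0.41 (adjusted p = 1.75e-05), PHACTR2 stood at -0.65 (adjusted p = 3.49e-05), FERMT2 stood at -0.42 (adjusted p = 6.73e-04) and CAMSAP2 stood at -0.57 (adjusted p = 8.50e-04).

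FAM174A, NETO2, C4orf3, UBE2K, CACUL1 and SLC35B4 made up the rest of the 17 genes that fell. FAM174A, a membrane protein, read 8.69 to 16.4 CPM with RPRD1A siRNA and 17.7 to 28.6 CPM without, with no overlap, and fell by 0.97 (SE 0.14, adjusted p = 7.34e-04). NETO2, an auxiliary subunit of kainate receptors, read 56.9 to 87.6 CPM with and 90.5 to 112 CPM without, again apart. C4orf3, a small transmembrane protein, also separated the sides, at 33.1 to 49.5 CPM with and 51.3 to 65.4 CPM without. UBE2K, a ubiquitin-conjugating enzyme, CACUL1, a cullin-domain protein that binds CDK2, and SLC35B4, a nucleotide sugar transporter, also fell, with log2 fold changes of -0.47, -0.40 and -0.44 and all 8 pairs lower for each. Without the library that stood apart, FAM174A stood at -0.89 (adjusted p = 3.49e-05), NETO2 stood at -0.52 (adjusted p = 3.66e-05), C4orf3 stood at -0.38 (adjusted p = 0.00724), UBE2K stood at -0.40 (adjusted p = 2.26e-05), CACUL1 stood at -0.41 (adjusted p = 3.66e-05) and SLC35B4 stood at -0.50 (adjusted p = 1.11e-06).

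**Figure D2:**
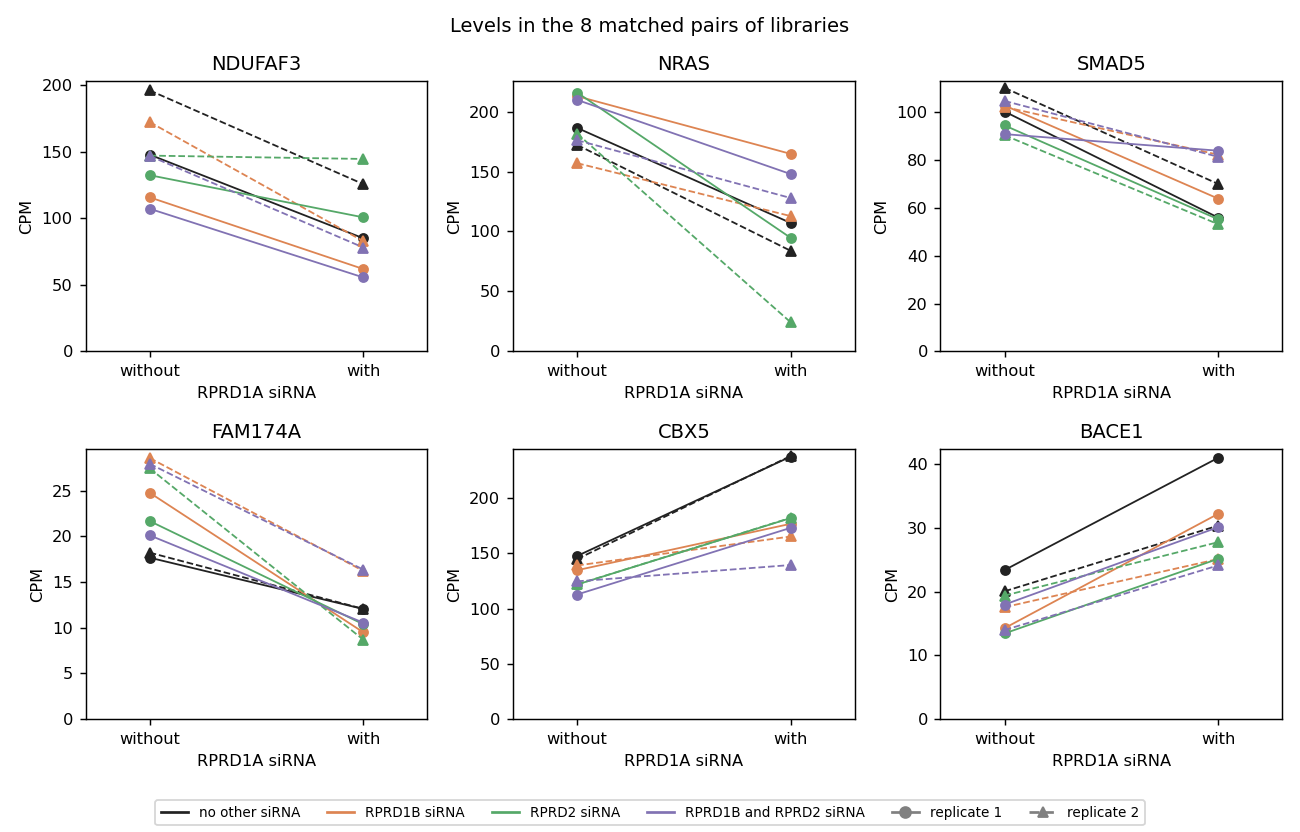
Levels of NDUFAF3, NRAS, SMAD5, FAM174A, CBX5 and BACE1 in CPM (linear axes from 0) in the 8 matched pairs, with a line from the library without RPRD1A siRNA to its partner with it, coloured by the other siRNAs given and shaped by replicate number. All 8 lines fall for NDUFAF3, NRAS, SMAD5 and FAM174A and rise for CBX5 and BACE1, and the lowest NRAS point, at 24.1 CPM, is RPRD1A_RPRD2_KD replicate 2.

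Leaving out RPRD1A_RPRD2_KD replicate 2 added 48 called genes. The median size of their change was 0.31 with all 16 libraries and 0.32 without it. In all 7 remaining pairs 37 of them had the same direction, as did 381 of the 11834 genes tested. They were called from these same libraries, so their direction is no separate support. Added genes that were higher were KLHL22, a CUL3 adaptor (0.42, SE 0.09, adjusted p = 0.00874), AKR1B1, aldose reductase (0.27, SE 0.06, adjusted p = 0.00833), HMGA2, an architectural chromatin protein (0.33, SE 0.07, adjusted p = 0.0104), FUBP1, a single-strand DNA binding regulator of MYC (0.23, SE 0.05, adjusted p = 0.0210), CCDC92, AC027307.2, an antisense transcript across APC2, MTA1, a subunit of the NuRD chromatin remodeller, and OCRL, an inositol phosphatase. CCDC92 separated the sides in all 16 libraries, at 16.9 to 24.8 CPM with and 10.98 to 16.2 CPM without. MTA1 and OCRL were higher in the 7 remaining pairs and lower in the pair of the library left out, where MTA1 read 109 CPM against 196 to 265 CPM on the untreated side.

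Of the 40 added genes that were lower, GPN1 and AGO2 stand on the gene lists, and HOXA10, MLLT1, ESRRA and TFDP1 were chosen after their values were seen. GPN1, a GTPase that works with RPAP2 in bringing RNA polymerase II into the nucleus, ranged from 39.3 to 66.5 CPM with RPRD1A siRNA and from 61.0 to 89.2 CPM without, and fell by 0.43 (SE 0.09, adjusted p = 0.00724); with all 16 libraries its adjusted p was 0.066. GPN1 overlaps CCDC121 and SUPT7L on the opposite strand. MLLT1, a reader of acylated histones in elongation complexes, fell by 0.53 (SE 0.11, adjusted p = 0.00618), TFDP1, the partner of E2F factors, fell by 0.21 (SE 0.05, adjusted p = 0.0449), HOXA10 fell by 0.31 (SE 0.07, adjusted p = 0.00724) and the nuclear receptor ESRRA fell by 0.37 (SE 0.08, adjusted p = 0.0160). AGO2, the slicing Argonaute on which siRNAs are loaded, fell by 0.28 (SE 0.07, adjusted p = 0.0449), with all 8 pairs lower. It was called in 7 of 24 alternatives to the fit that called it. With all 16 libraries these fell short, with values for GPN1 of -0.46, MLLT1 -0.47, TFDP1 -0.18, HOXA10 -0.31, ESRRA -0.48 and AGO2 -0.31.

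**Figure D3:**
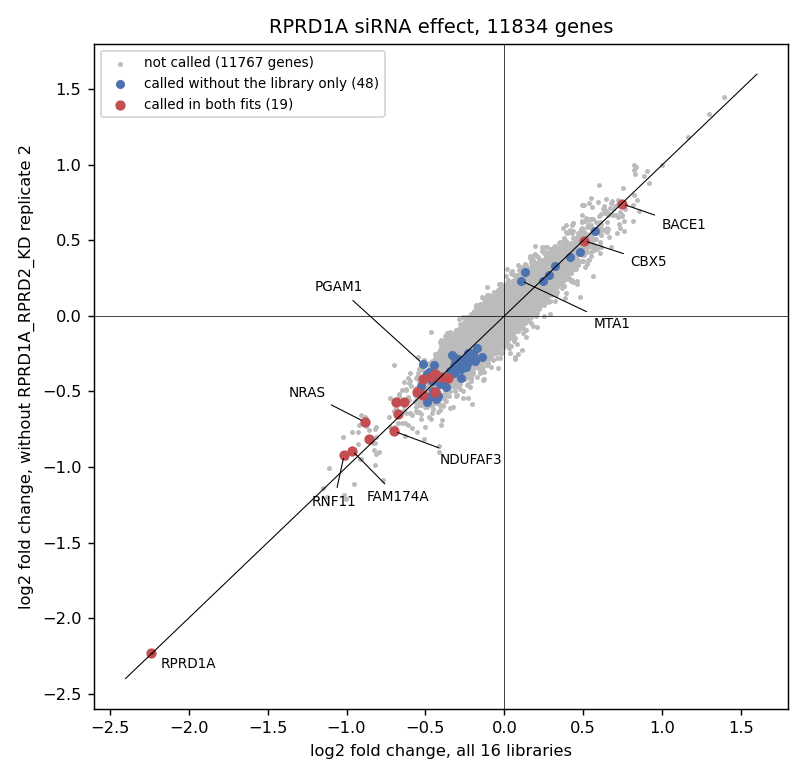
RPRD1A siRNA effect on each of 11834 genes (log2 fold change) with all 16 libraries (horizontal axis) and without RPRD1A_RPRD2_KD replicate 2 (vertical axis), with the line of equality. The 19 genes called in both are red and the 48 called only without that library are blue, and RPRD1A is lowest at -2.24 and -2.23. The fits share 15 libraries, and some called genes lie off the line, such as PGAM1 (-0.52 and -0.32) and MTA1 (0.11 and 0.23).

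The RPRD1A siRNA effect was set against those of RPRD1B and RPRD2 siRNA by testing the difference of effects, since the 3 effects are estimated from the same libraries. With all 16 libraries, 25 genes (0.211%) differed between the RPRD1A and RPRD1B siRNA effects, and 9 (0.0761%) between the RPRD1A and RPRD2 siRNA effects. Without the library that stood apart, 54 (0.456%) and 38 (0.321%) did. On their own, RPRD1B siRNA had 23 genes called (0.194%) and RPRD2 siRNA 2 (0.0169%), or 99 (0.837%) and 16 (0.135%) without that library.

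CBX5 differed from both. Its value was -0.21 under RPRD1B siRNA (SE 0.07, adjusted p = 0.27) and -0.25 under RPRD2 siRNA (SE 0.07, adjusted p = 0.78), beside 0.50 for RPRD1A siRNA. The differences of effects were 0.72 (SE 0.10, adjusted p = 3.3e-04) and 0.75 (SE 0.10, adjusted p = 2.5e-04), or 0.72 (adjusted p = 7.3e-07) and 0.76 (adjusted p = 4.1e-08) without the library that stood apart. BACE1 likewise differed, by 0.94 from the RPRD1B siRNA effect (SE 0.17, adjusted p = 0.010) and by 0.97 from the RPRD2 siRNA effect (SE 0.17, adjusted p = 0.020), or by 0.94 (adjusted p = 0.0025) and 0.96 (adjusted p = 6.2e-04) without that library. HIPK3 had a value of 0.51 under RPRD1B siRNA (SE 0.13, adjusted p = 0.12) and -0.86 under RPRD1A siRNA, a difference of -1.36 (SE 0.18, adjusted p = 3.3e-04), or -1.28 (adjusted p = 6.3e-06) without that library. The antisense transcript AC027307.2 fell by 0.46 with RPRD1B siRNA (adjusted p = 0.023), beside 0.42 under RPRD1A siRNA (adjusted p = 0.055), and whether its reads were told from those of APC2 by strand is not given in the sources used here.

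NDUFAF3 fell with RPRD1A siRNA and with RPRD1B siRNA. With RPRD1B siRNA it fell by 0.44 (adjusted p = 0.036; fell by 0.37 without the library that stood apart, adjusted p = 0.0036), and the difference from the RPRD1A siRNA effect, -0.25 (SE 0.12, adjusted p = 0.49), did not pass the test. Its RPRD2 siRNA value was -0.09 (SE 0.09, adjusted p = 0.95). The lowest NDUFAF3 levels stood where RPRD1A and RPRD1B siRNA were combined: 61.8 and 82.7 CPM in RPRD1A_RPRD1A_KD and 55.4 and 77.9 CPM in the group of all 3 siRNAs, against 148 and 196 CPM in control. GIPC1, a PDZ-domain adaptor protein, had the smallest p for the difference between the RPRD1A and RPRD1B siRNA effects: its value was 0.05 (SE 0.10, adjusted p = 0.96) under RPRD1A siRNA, and it fell by 1.40 with RPRD1B siRNA (SE 0.10, adjusted p = 3.26e-09).

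No gene showed an RPRD1A siRNA effect that depended on the other siRNAs by the interaction test. The interaction with RPRD1B siRNA called 0 of 11834 genes in edgeR and 0 in DESeq2, with 592 and 258 at an unadjusted p under 0.05, and that with RPRD2 siRNA called 0 and 0, with 666 and 252. Without the library that stood apart edgeR called 0 for each as well, with 661 and 615 at an unadjusted p under 0.05. The values by background are given as descriptions. In 10 of the 19 called genes (52.6%) the mean pair difference was smaller in size in both backgrounds with RPRD1B siRNA than in both without, against 24.7% of all genes tested. The fitted interaction with RPRD1B siRNA had the opposite sign to the RPRD1A siRNA effect in 16 of the 19 (84.2%; 56.3% of all genes tested), and in 14 (73.7%; 50.7%) without the library that stood apart. Over the 67 genes called without that library, 31.3% were smaller in both backgrounds with RPRD1B siRNA, against 24.7% of all genes tested. The pair differences behind this share, and behind that of the 19, still include the library that stood apart. The interaction had the opposite sign in 53.7% of the 67 with all 16 libraries (56.3% of all genes tested). Without the library that stood apart it did in 58.2% (50.7%). These shares lay closer to those of all genes tested than the shares of the 19 did. CBX5 was 0.70 higher with no other siRNA, 0.58 with RPRD2 siRNA, 0.32 with RPRD1B siRNA and 0.39 with both. SMAD5 was at -0.74, -0.77, -0.50 and -0.24 in the same order, and NETO2 at -0.72, -0.75, -0.25 and -0.36. The RPRD1A difference itself was -2.98, -2.13, -2.20 and -1.53 in that order, with the smallest difference where both were given; its part in these values was not tested. Among the 19 genes the mean difference of BACE1 varied least between backgrounds, from 0.69 to 0.83, although its single pairs ran from 0.50 to 1.15. NDUFAF3 went the other way, at -0.72 with no other siRNA, -0.21 with RPRD2 siRNA, -0.98 with RPRD1B siRNA and -0.93 with both, and its RPRD2 background holds the library that stood apart. NRAS, at -0.92, -2.04, -0.42 and -0.48, rests on that library in the RPRD2 background, where its pair gave -2.89 and the other pair -1.19.

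**Figure D4:**
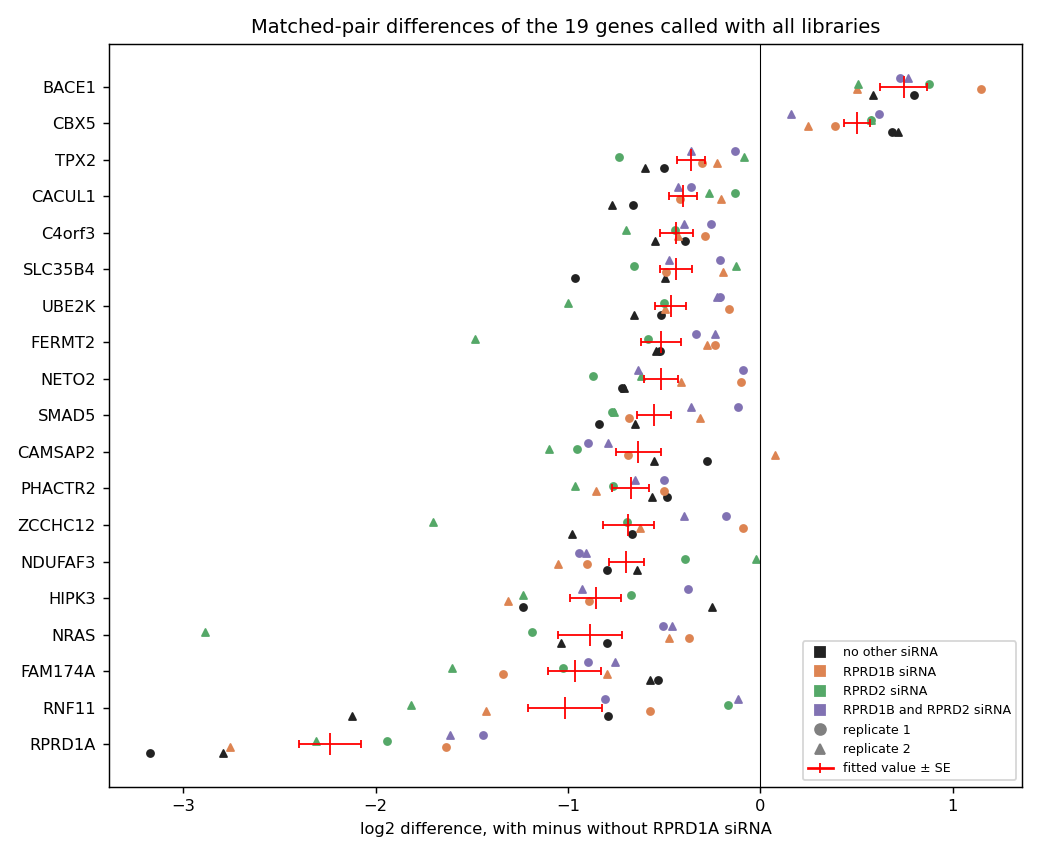
Log2 difference between the library with RPRD1A siRNA and its matched library without (log2(CPM + 0.5)) for each of the 19 genes called, with 8 points per gene, coloured by the other siRNAs given and shaped by replicate number, and the fitted log2 fold change with its SE in red. In 18 genes all 8 points lie on one side of 0, and CAMSAP2 has 7 of 8 below it.

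Values for genes of the machinery in which RPRD1A works are given beside the share called over all genes tested, 0.161% with all 16 libraries and 0.566% without the one; at these shares a list of this size would hold about 0 calls, so a count of 0 is near the background. Of 8 CTD-interaction domain genes tested, RPRD1A alone was called; U2SURP and CHERP, splicing factors with this domain, stood at -0.09 and 0.04, SCAF4 at -0.33 (adjusted p = 0.68) and PCF11, a termination factor, at 0.10. Among 10 CTD phosphatases and RPAP2 partners, 0 were called with all 16 libraries and GPN1 was called without the library that stood apart; RPAP2 itself was at 0.24 (SE 0.10, adjusted p = 0.63), with 7 of 8 pairs higher, and the phosphatase SSU72 at -0.04. None was called in either fit among 14 CTD kinases and cyclins (CDK12 at -0.16), 11 of 12 polymerase II subunits that could be tested (POLR2A, which bears the tail, at 0.04, SE 0.06), 24 elongation and pausing factors (SSRP1 at 0.05), 21 cleavage and polyadenylation factors (PABPN1 at -0.09), 14 Integrator subunits (INTS5 at -0.17) and 10 termination and R-loop factors (TOP1 at 0.06). The list medians in these families lay between -0.08 and 0.03, beside -0.002 for all genes tested.

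Wnt genes, on which RPRD1A has been described to act, gave 0 calls, which at the same background shares is no result about these genes. Of 15 TCF and beta-catenin complex genes, 0 passed, with CTNNB1 (beta-catenin) at 0.03 (SE 0.06, adjusted p = 0.95) and HDAC1 at 0.01 (SE 0.05, adjusted p = 0.98). Of 15 Wnt target and feedback genes 9 could be tested and 0 passed, with a median of -0.08 and a range from -0.35 to 0.76. CCND1, cyclin D1, stood at -0.14 (SE 0.09, adjusted p = 0.84), MYC at -0.23 (SE 0.16, adjusted p = 0.85) and AXIN2 at -0.03 (SE 0.20, adjusted p = 0.99). The highest was NKD2, a Wnt antagonist, at 0.76 (SE 0.24, adjusted p = 0.37; means 7.01 CPM with and 4.17 CPM without), and NKD1 was higher in 8 of 8 pairs at 0.27 (SE 0.13, adjusted p = 0.71).

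AGO2 was the 1 gene called on the cell cycle, stress and siRNA lists, again beside 0.161% and 0.566% called over all genes tested. None of 22 cyclins, CDKs and inhibitors was called, with CDKN2B, the p15 inhibitor after which P15RS was named, at 0.14 (SE 0.23, adjusted p = 0.95) and 6.47 and 5.79 CPM, and CDKN2D lowest at -0.48 (SE 0.14, adjusted p = 0.30). None of 22 E2F and DNA replication genes was called, with RRM1 at 0.06 and MCM2 at -0.06, or 0.04 without the library that stood apart. Of the 22, 17 had a positive value, beside 5822 of 11834 genes tested. Their median was 0.04, and no set test was run. The 17 p53 target genes tested had a median of 0.11, or 0.04 without the library that stood apart, and none was called. JUN was lower in 7 of 8 pairs at -0.22 (SE 0.06, adjusted p = 0.32; 0.069 without that library), and 0 of 9 immediate early genes were called. Of 17 interferon response genes 4 had enough counts to test and 0 were called. Of 13 RNA interference genes AGO2 was called, and only without that library. The 6 of 7 genomic neighbours of RPRD1A that could be tested, with SLC39A6 at 0.04 and ELP2 at 0.01, gave no call, and neither did the 8 kidney line markers tested nor the 2 tested of other cells.

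**Figure D5:**
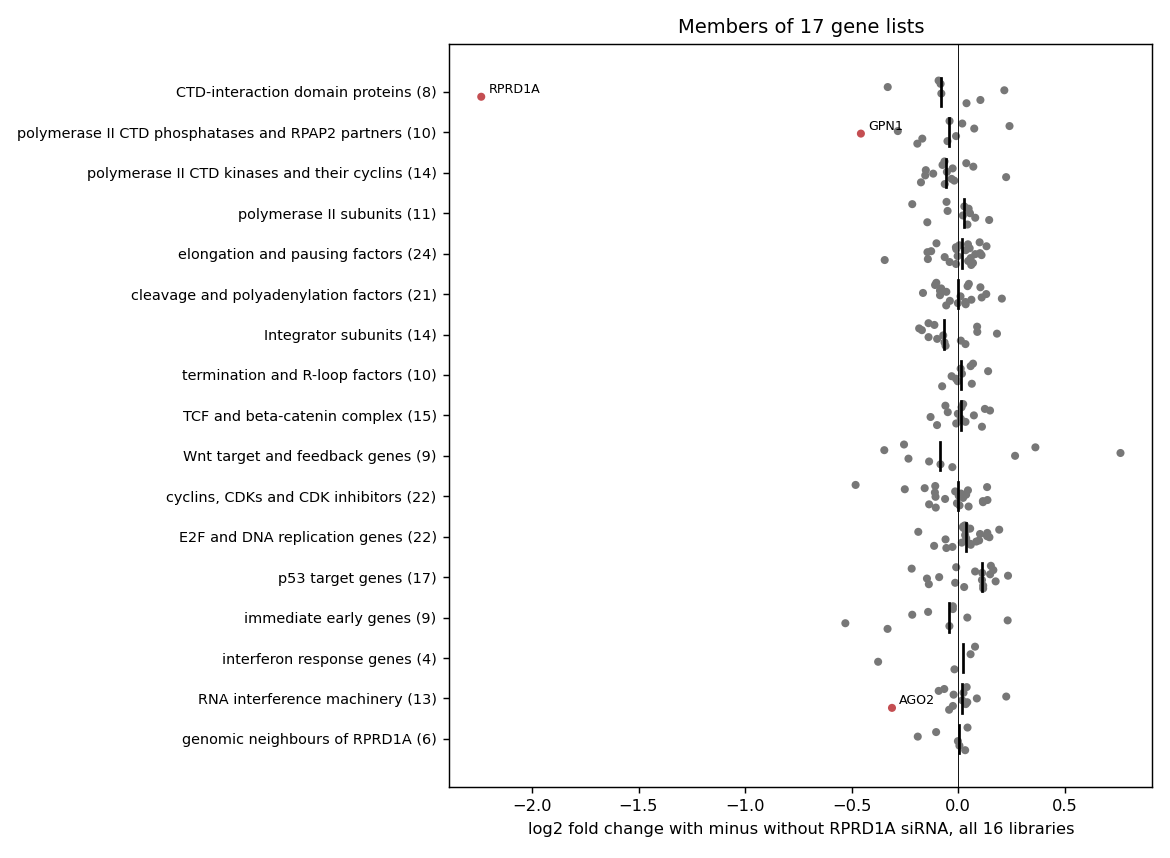
Log2 fold change with RPRD1A siRNA, all 16 libraries, for each tested member of 17 gene lists (1 point per gene, number tested in brackets, black bar at the list median). Red points are genes called with all 16 libraries (RPRD1A, at -2.24) or only without RPRD1A_RPRD2_KD replicate 2 (GPN1 and AGO2), and the list medians lie between -0.08 and 0.11.

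Transcript length and GC content of the genes called lower are given as a description, with no test. The 17 genes called lower with all 16 libraries, all protein coding, had a median transcript length of 5245 bases and a median GC content of 40.3%, against 3650 bases and 47.9% over all genes tested. The 40 genes called lower only without the library that stood apart had medians of 2519 bases and 52.3%, so that the 57 called lower without that library together had 3046 bases and 47.2%, near the values over all genes tested. These features come from GENCODE 29, and the deviations of the library that stood apart moved with GC content. All 19 genes were called without that library, and with a GC correction of all 16 libraries 22 genes were called, the 19 among them. The part of GC content in these calls was not tested.

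The motif search in 300-base promoter windows gave shares that are descriptions of few genes. A promoter was found for 14 of the 17 genes called lower with all 16 libraries. Of these 14, the GC box was found in 11 (78.6%), against 72.8% of the promoters of genes tested and 44.6% of all 27305 promoters. The CCAAT box was found in 3 (21.4%, against 37.5% and 35.7%), the TATA box in 2 (14.3%, against 4.8% and 12%) and a TCF site in 0 (against 3.6% and 7.0%). CBX5 and HNRNPA1 start 60 bases apart on opposite strands. HNRNPA1, an abundant splicing regulator, stood at 0.02 on the log2 scale (SE 0.06, adjusted p = 0.98), so CBX5 was called and its neighbour was not. Of the 67 genes, 12 have such a head-to-head neighbour within 1000 bases, as do 2205 of the 11834 genes tested (18.6%). Of the 12 neighbours, 9 could be tested and 0 were called. With 0.566% called over all genes tested, a count of 0 is near the background.

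Values within each replicate number are given as a description. The genes named here were picked from all 16 libraries, so their direction within a replicate number is no separate support. In the 8 libraries of replicate 1, 16 genes were called, among them NDUFAF3 (-0.75, adjusted p = 1.5e-04), CBX5 (0.57, adjusted p = 4.4e-04) and NRAS (-0.70, adjusted p = 2.0e-04). In the 8 of replicate 2, 1 gene was called, RPRD1A, and NDUFAF3 (-0.66, adjusted p = 0.83), CBX5 (0.42, adjusted p = 0.85) and NRAS (-1.10, adjusted p = 0.85) were not; without the library that stood apart, 25 were called in that replicate. RNF11 was at -0.58 (adjusted p = 0.62) in replicate 1 and -1.38 (adjusted p = 0.82) in replicate 2.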

How the data were processed

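Per the labels' protocols, cells were harvested 48 h into siRNA treatment, RNA was isolated with TRIzol, and QuantSeq REV libraries read polyadenylated RNA from its 3′ ends. Each library's deposited table gives raw counts for 58138 gene names. FastQC, STAR, HTSeq, DESeq2 and GRCh38 are named in the submitters' processing notes, whose roles and versions are not given in the sources used here. The counts of reads outside genes or without a unique gene (40.5% to 48.5% of a library) were left out of library sizes and tests. With 3 counts as the floor, detection began at 0.957 to 1.65 CPM; this covers counting error only.

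The 16 HEK293T libraries entered one edgeR 4.0.16 model (R 4.3.3). Genes were kept by filterByExpr (minimum count 10, minimum total 15), libraries scaled by TMM, and effects of RPRD1A, RPRD1B and RPRD2 siRNA tested by the quasi-likelihood test with replicate number as a block. Adjusted p is Benjamini-Hochberg over all 11834 genes, and genes under 0.05 were called. The SE is the size of the effect divided by the root of its F statistic. Interactions came from the model with all pairwise products. Without a statement that replicates are separate cultures, p-values measure only the spread between these samples. As a check of pairing by replicate number, deviations of same-numbered samples from group means correlated at a mean r of 0.329 over 28 pairs of groups (-0.0161 to 0.518), and at 0.287 to 0.518 in the 21 pairs without RPRD1A_RPRD2_KD; the numbers come from the sample titles. In each of the 8 groups the 2 replicates differed by more than counting noise (chi-square per degree of freedom 3.52 to 10.7), so none was counted as a duplicate library.

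Genes named are the 3 targets; up to 12 called genes per direction and fit with the smallest p, a mean of 10 CPM or more and one direction in all matched pairs; called list members; the 2 most abundant tested members of each of 19 lists; and the genes with the smallest p in a difference of effects. Any other gene was chosen after its values were seen. The comparison, lists and left-out library were chosen with earlier results of these data known. Alternatives were RLE scaling, DESeq2 1.42.0, other filters, no replicate block, each library left out, a GC correction (lowess span 0.3), single replicates, other backgrounds and the label reading of RPRD1A_RPRD1A_KD. The test was also run on counts simulated from the additive model, with no library that stands apart, and no result here rests on that run. Of the gene names, 54848 matched 1 gene in GENCODE 29. The 8 Flp-In T-REx 293 samples were not analysed here.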

Additional observations from a re-analysis of the deposited data

Results flagged for a closer look

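NRAS in RPRD1A_RPRD2_KD replicate 2 lay far from the other 7 libraries with RPRD1A siRNA. It read 24.1 CPM, the next library 83.8 CPM, and the gap was 0.647 of the range of the 8 libraries, above Dixon's critical value for 8 libraries. Of 42 groups examined (21 genes on each side of the comparison), this was the only 1 so marked, where chance gives about 1 in 20, or 2.1.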

How the results depend on the processing

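No called gene named here changed direction under the alternatives to a fit that called it. MTA1 and OCRL, called only without RPRD1A_RPRD2_KD replicate 2, did change sign among the alternatives to the fit of all 16 libraries. Their lowest values there were -0.05 and -0.06. Uncalled values near 0, such as those of MCM2, GIPC1 and SSU72, changed sign too. The RPRD1A siRNA effect called 19 genes; it called 29 in DESeq2, 50 with no filter on low counts, 22 with a GC correction alone, 71 with that correction and the library that stood apart omitted, 12 when RPRD1A_RPRD1A_KD was taken as without RPRD1B siRNA, 5 in the 12 libraries of the 3 backgrounds other than no other siRNA, and 1 in replicate 2 alone. Leaving out each library in turn gave 12 (either RPRD1A_KD library) to 67 genes (RPRD1A_RPRD2_KD replicate 2). The pairing by replicate number mattered: with no replicate block it called 8 genes, the difference from RPRD1B siRNA 12, the difference from RPRD2 siRNA 5, and the effect without RPRD1A_RPRD2_KD replicate 2 called 14 in place of 67. NDUFAF3 then had an adjusted p of 0.060 with all 16 libraries.

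The 67 genes became 25 in replicate 2 alone and 36 (without RPRD1B_KD replicate 1) to 70 (without RPRD2_KD replicate 2) on leaving out 1 further library, with 43 and 37 without RPRD1A_KD replicates 1 and 2. The difference from RPRD1B siRNA (25 genes) gave 41 in DESeq2, 127 with no filter, 14 under the label reading, 25 with the GC correction alone, 67 with it and that library omitted, and 13 to 54 on leaving out each library. The difference from RPRD2 siRNA (9 genes) gave 15, 20, 4, 9, 39 and 3 to 38 in the same order. The interactions, at 0, gave 14 (RPRD1B) and 15 (RPRD2) with no filter, and that with RPRD2 gave 67 under the label reading. The cause of these moves was not tested.

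Among alternatives to the fit of all 16 libraries, RPRD1A was called in 30 of 30, NDUFAF3 and CBX5 in 28 and NRAS in 20. TPX2 was called in 14, FERMT2 in 13 and RNF11 in 18 of 29. Genes called only without RPRD1A_RPRD2_KD replicate 2 had 24 alternatives to that fit. AGO2 was called in 7, TFDP1 and OCRL in 9, GFM1 and SGPL1 in 10, and CCDC92 in 11 of 23. PGAM1 was called in 15, AC027307.2 and FUBP1 in 16, ESRRA and MTA1 in 18, and GPN1 and HMGA2 in 20. AKR1B1, HOXA10 and KLHL22 were called in 21, AL645608.8 and MRPL12 in 22, and MLLT1 and ORMDL2 in 23. Depth limits precision: DALRD3, near 10.4 CPM, had an SE of 0.19.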

Other observations

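Among the 40 genes called lower only without RPRD1A_RPRD2_KD replicate 2 were MRPL12, GFM1, ORMDL2, SGPL1 and PGAM1, named here after their values were seen; the values below leave that library out unless stated. MRPL12, a mitochondrial ribosomal protein, fell by 0.25 (edgeR adjusted p = 0.00356), at 422 to 683 CPM with RPRD1A siRNA and 509 to 748 CPM without over all 16 libraries, and GFM1, a mitochondrial translation elongation factor, fell by 0.29 (adjusted p = 0.0308). ORMDL2, a regulator of sphingolipid synthesis, fell by 0.57 (adjusted p = 9.66e-04), and SGPL1, sphingosine phosphate lyase, fell by 0.46 (adjusted p = 0.0302). PGAM1, a glycolytic enzyme, fell by 0.32 (adjusted p = 0.0254); with all 16 libraries it stood at -0.52 with an adjusted p of 0.60, and the library left out held its lowest level. The noncoding transcript AL645608.8 fell by 0.55 (adjusted p = 2.25e-05), while with RPRD1B siRNA it rose by 0.48 (adjusted p = 3.7e-04), a difference of effects of -1.03 (adjusted p = 3.0e-08). With all 16 libraries that difference was -0.81 (adjusted p = 0.016). The RPRD1A siRNA effect on AL645608.8 was then -0.43 and did not pass (adjusted p = 0.17). The pair of the library left out went the other way, at 0.18.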
